A study of Mus musculus with 7 samples.

Results

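The 4 CXC chemokine genes *Cxcl9*, *Cxcl10*, *Cxcl11* and *Cxcl16* and the genes of the 2 receptors that bind their products, *Cxcr3* and *Cxcr6*, were followed in subcutaneous mouse pancreatic ductal adenocarcinoma (PDA) tumors. The 6 genes were taken by symbol from a table of 38026 genes, and each symbol matched 1 row. CXCL9, CXCL10 and CXCL11 bind CXCR3, a G protein-coupled receptor of activated T cells and NK cells, and their genes are known for induction by interferon gamma. CXCL16 is made as a membrane protein on myeloid and other cells, and its shed form attracts cells that carry its receptor CXCR6, such as activated and tissue-resident T cells. In tumors, the CXCR3 ligands are known as signals that draw effector T cells into the tissue, and CXCR6 is known as a receptor that helps to keep them there.

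All tumors were formed in C57BL/6 mice with PDA line 1242, which came from a tumor of a mouse whose alleles include LSL-*Trp53* R172H/+ and *Pdx1*-Cre, which the cancer cells of both groups share. The mice were bought at 6 weeks of age and housed for 2 weeks before the experiments. The cells had received a lentivirus with SpCas9 and either a scrambled guide (sgScramble, n = 4 tumors, replicates 1 to 4) or a guide against *Krt19*, an epithelial keratin gene (sgKRT19, n = 3 tumors, replicates 5, 6 and 8). The comparison asks how the immune genes of a tumor differ when *Krt19* has been edited in the cancer cells. Tumors were taken 2 weeks after inoculation without treatment. The study selected polyclonal lines with puromycin and also made single-cell clones, and the labels do not say which of these, or which of the guides against *Krt19*, formed the sgKRT19 tumors. The labels name no batch and do not say whether the tumors of a group came from separate inoculations on separate days, so p-values measure the spread between these tumors only.

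Values are normalized read counts, that is, reads per gene divided by a size factor of the library. The libraries held 40781199 to 44972100 reads, and 3 reads, taken as the floor of detection, were worth 2.74 to 3.47 on this scale. *Krt19* was at 17841 to 27618 in the sgScramble tumors and at 1606 to 2470 in the sgKRT19 tumors (log2 fold change −3.52, limma adjusted p = 1.74e-05). Epithelial transcripts were abundant in every tumor, and of 6 epithelial genes 3 were higher in sgKRT19 tumors, the keratin genes *Krt8* (0.91) and *Krt18* (0.97) and the cadherin gene *Cdh1* (0.55). *Epcam* (0.06), *Krt7* (−1.03) and *Cldn4* (−1.23) did not pass (limma adjusted p = 0.943, 0.115 and 0.149). The summed level of the 6, most of it *Krt8* and *Krt18*, was 117297 to 158537 in sgScramble and 237947 to 247293 in sgKRT19 tumors. Skeletal muscle genes moved with the groups: all 5 muscle markers were higher in sgKRT19 tumors, with sums of 11130 to 18850 against 27.7 to 1432, and the highest sgScramble sum was that of replicate 3. Among them *Actn2* was at 0 in sgScramble replicates 1 and 2, *Ckm* in replicate 2 and *Myh4* in replicates 2 and 4. *Ckm*, *Myh4*, *Mb* and *Actn2* reached 10, the filter value given below, in sgScramble replicate 3 only. They thus entered the test only through the sgKRT19 tumors, and *Acta1* alone did not. *Myh4* was not called with DESeq2 (5.03, DESeq2 adjusted p = 0.110). The part of muscle tissue in the results on chemokines was not tested. Without sgScramble replicate 3 the same 5 of the 6 genes passed the limma test. That fit cannot bear on the part of muscle, since the remaining sgScramble sums were 27.7 to 40.8 and muscle then followed the groups throughout.

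Between the groups, 5 of the 6 genes were higher in the sgKRT19 tumors, where limma, fitted over all 21322 genes with enough reads, called 34.0% of genes in either direction and 17.9% as higher. All 6 genes passed the filter on low values, which asked for at least 10 in at least 3 libraries. The 5 were *Cxcl9*, *Cxcl10*, *Cxcl11*, *Cxcr3* and *Cxcr6*, and *Cxcl16* did not pass. In these 5 the groups did not overlap, against 21.7% of all tested genes in which every sgKRT19 tumor lay above every sgScramble tumor. The median log2 fold change of the 6 was 2.14, beside 0.01 over all genes tested. The same 5 were called by edgeR, which called 17.3% of genes as higher, and by DESeq2, which called 19.3%. They were also called in a limma test for a fold change above 1.5, which 3.41% of genes passed as higher. When libraries were scaled by total reads alone, the median of all genes moved to −0.21 and the share of higher genes among the calls went from 52.8% to 27.7%, and the same 5 genes remained called as higher.

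**Figure D1:**
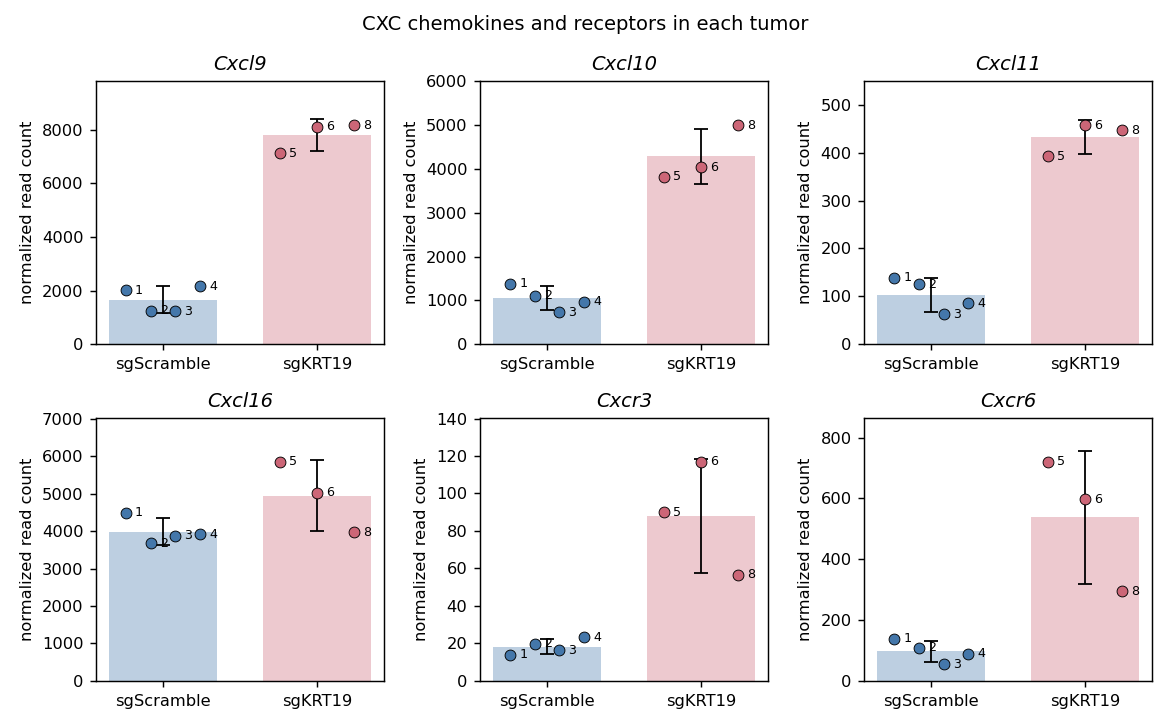
Normalized read count (y axis, from 0) of the 6 genes in each tumor. Points are tumors with their replicate number, bars are group means and error bars are SDs (sgScramble, n = 4; sgKRT19, n = 3). The groups are apart in every panel but that of *Cxcl16*, where sgKRT19 replicate 8 (3964) lies among the sgScramble tumors.

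The 3 CXCR3 ligand genes lie beside each other on chromosome 5, all on the minus strand, and 2 of them have an upstream window in RefSeq (GRCm38.p6). These windows are shown because both hold a match to the interferon-stimulated response element, GAAANNGAA, the site type read by interferon-activated factors. They are the 250 bases before the transcription start of each gene, at chr5:92328080-92328329 for *Cxcl9* and chr5:92348890-92349139 for *Cxcl10*, written 5′ to 3′ along the minus strand with motif matches in capitals.
Cxcl9: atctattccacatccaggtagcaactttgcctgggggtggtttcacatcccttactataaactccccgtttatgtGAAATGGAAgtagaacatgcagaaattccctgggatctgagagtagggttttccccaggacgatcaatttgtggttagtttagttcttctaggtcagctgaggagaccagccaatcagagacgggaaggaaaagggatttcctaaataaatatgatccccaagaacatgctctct
Cxcl10: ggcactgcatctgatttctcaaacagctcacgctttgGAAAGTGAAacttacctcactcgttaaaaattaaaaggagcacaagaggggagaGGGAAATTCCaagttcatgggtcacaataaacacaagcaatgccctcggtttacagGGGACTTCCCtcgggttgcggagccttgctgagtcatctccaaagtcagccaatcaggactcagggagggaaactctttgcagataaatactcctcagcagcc
Both strands were searched for 4 motifs. GAAANNGAA occurred in the *Cxcl9* window, 175 to 167 bases before the start (GAAATGGAA), and in the *Cxcl10* window, 213 to 205 bases before the start (GAAAGTGAA), and in 7.13% of all 32851 windows of this length. The consensus of NF-kB, the factor that tumor necrosis factor activates, occurred in the *Cxcl10* window only among the windows of *Cxcl9*, *Cxcl10*, *Cxcr3* and *Cxcr6*, at 159 to 150 bases (GGGAAATTCC) and at 103 to 94 bases (GGGACTTCCC) before the start, and in 3.90% of all windows. The strict gamma-activated site TTCNNNGAA (7.02% of windows) and the T-box core AGGTGTGA (1.12% of windows) had no match in these 4 windows, nor had the *Cxcr3* and *Cxcr6* windows a match to any of the motifs. A match describes letters in a window and not a bound site. Of the 6 genes, 4 had a window in the RefSeq table. *Cxcl11* and *Cxcl16* had no entry.

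*Cxcl9* (chr5:92321347-92328079, protein coding) encodes a ligand of CXCR3 that is known mainly as a product of myeloid cells exposed to interferon gamma. Its values were 2021, 1244, 1238 and 2166 in sgScramble replicates 1 to 4 and 7133, 8113 and 8182 in sgKRT19 replicates 5, 6 and 8. The sgScramble tumors thus fell into a higher pair, replicates 1 and 4, and a lower pair, replicates 2 and 3, and the lowest sgKRT19 tumor lay far above both. The means were 1667 ± 496 (SD, n = 4) and 7809 ± 587 (SD, n = 3), a ratio of 4.68. On the log2(value + 1) scale the difference was 2.27 (SE 0.21, limma adjusted p = 7.09e-05).

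*Cxcl10* (chr5:92346638-92348889, protein coding) encodes the CXCR3 ligand that many cell types make in answer to interferons. It was at 1380, 1107, 724 and 973 in the sgScramble tumors and at 3825, 4046 and 5007 in the sgKRT19 tumors. sgScramble replicate 3 was the lowest tumor and sgKRT19 replicate 8 the highest. The log2 difference was 2.06 (SE 0.20, limma adjusted p = 9.21e-05), with group means of 1046 ± 273 and 4293 ± 628.

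*Cxcl11* (chr5:92359544-92365485) encodes a further CXCR3 ligand, and in the C57BL/6 strain its reading frame is known to be broken by a frameshift. The annotations list it as a polymorphic pseudogene (GENCODE M21) and a transcribed pseudogene (RefSeq), so its level here is that of a transcript. It was at 139, 125, 63.0 and 85.3 in sgScramble and at 393, 458 and 447 in sgKRT19 tumors. The transcript followed *Cxcl10*, with replicate 3 again the lowest, and rose by 2.12 on the log2 scale (SE 0.26, limma adjusted p = 3.19e-04). A processed pseudogene on the other strand, *Gm2673*, shares 41.7% of the exon bases of *Cxcl11* and was at 0 in all 7 libraries.

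*Cxcl16* (chr11:70453983-70459984, minus strand, protein coding) had the highest level per length of the 6 genes in the sgScramble tumors. Its values were 4490, 3675, 3876 and 3910 in sgScramble and 5856, 5021 and 3964 in sgKRT19 tumors. Replicates 5 and 6 lay above every sgScramble tumor, while replicate 8 lay below sgScramble replicate 1. The log2 difference was 0.30, with a 95% interval of −0.02 to 0.61 and a limma adjusted p of 0.126. The interval lies below the intervals of *Cxcl9* (1.82 to 2.73), *Cxcl10* (1.63 to 2.50) and *Cxcl11* (1.55 to 2.69). The call on *Cxcl16* depended on a single tumor: without sgKRT19 replicate 8 the difference was 0.45 with a limma adjusted p of 0.0378, and without replicate 5 it was 0.17. With libraries scaled by total reads alone it was 0.08, above the all-gene median of −0.21 on that scale. The opposite-strand gene *Zmynd15* shares 18.3% of the exon bases of *Cxcl16* and had a log2 difference of −0.26 (limma adjusted p = 0.149), and whether the counting used strand is not given in the sources used here.

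*Cxcr3* (chrX:101731535-101734269, minus strand, protein coding) encodes the receptor of CXCL9, CXCL10 and CXCL11 and was the gene with the fewest reads. It was at 13.9, 19.8, 16.4 and 23.2 in the sgScramble tumors, from 15 to 25 reads, and at 90.2, 117 and 56.7 in the sgKRT19 tumors, from 54 to 117 reads. Even the lowest sgKRT19 tumor, replicate 8, was above the highest sgScramble tumor, replicate 4. The log2 difference was 2.17 (SE 0.30, limma adjusted p = 6.73e-04), and 1.75 with a pseudocount of 10, which weighs low values less.

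*Cxcr6* (chr9:123806475-123811760, plus strand, protein coding) encodes the receptor of CXCL16. It was at 138, 109, 55.7 and 90.0 in the sgScramble tumors and at 721, 598 and 295 in the sgKRT19 tumors. The sgKRT19 tumors were spread widely, with replicate 8 again the lowest, and the groups did not overlap. The log2 difference was 2.42 (SE 0.35, limma adjusted p = 7.97e-04), with means of 98.2 ± 34.6 and 538 ± 219. *Cxcr6* lies within a gene on the other strand, *Fyco1*, shares no exon base with it, and *Fyco1* had a log2 difference of −0.30 (limma adjusted p = 0.245).

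In bulk tumor RNA a lower level can mean fewer cells that express a gene or less RNA per cell, and these cannot be told apart. T cell transcripts moved with both receptors: 10 of 11 T cell markers were higher in sgKRT19 tumors, with a median log2 difference of 2.33 and sums of 4482 to 7927 against 906 to 1524. *Cd4*, the coreceptor of helper T cells, was the marker that did not pass (0.56, limma adjusted p = 0.116). Of 5 NK cell markers, 3 were higher, *Klrk1* (1.93), *Klre1* (1.53) and *Klrd1* (2.38), and the sums were 1008 to 1258 against 217 to 375. *Ncr1*, which defines NK cells, and *Klrb1c* did not pass, with log2 differences of 0.81 and 1.17 (limma adjusted p = 0.197 and 0.0525). *Klrb1c* was called as higher with DESeq2, with a pseudocount of 10 and without sgScramble replicate 4. The macrophage genes *Adgre1*, *Csf1r* and *Cd68* had log2 differences of 0.02, 0.05 and 0.10 (limma adjusted p = 0.942, 0.832 and 0.589), while the Fc receptor gene *Fcgr1* rose by 0.89 (limma adjusted p = 0.00450), a call kept with scaling by total reads and in every fit without a library (limma adjusted p up to 0.0196 in the latter). The complement genes *C1qa*, *C1qb* and *C1qc* rose by 0.52, 0.57 and 0.42, calls that were lost with scaling by total reads (limma adjusted p = 0.0878, 0.0572 and 0.235). Over the 8 macrophage markers the sums were 18541 to 25611 in sgScramble and 24415 to 29991 in sgKRT19 tumors, with 4 higher and 1 lower (*Mrc1*, −0.50). The call of *Mrc1* was lost without sgScramble replicate 2 or 4 or sgKRT19 replicate 5 or 8 (limma adjusted p up to 0.124), that of *C1qc* without sgScramble replicate 2 or 3 or sgKRT19 replicate 5 or 6 (up to 0.103) and that of *C1qa* without sgKRT19 replicate 5 (0.0546). Beside 17.9% of all tested genes called as higher, 2 of 7 dendritic cell markers were higher (sums 2247 to 3011 and 2676 to 3113), *Clec9a* (0.88) and *Itgax* (0.55). Both calls were lost with scaling by total reads (limma adjusted p = 0.0739 and 0.215) and without sgScramble replicate 2 (0.0578 and 0.0830) or sgKRT19 replicate 6 (0.0675 and 0.117). Of 4 neutrophil markers tested all 4 were higher (sums over all 5 markers 339 to 491 and 948 to 1042). Among them *Retnlg* (3.95 to 11.1 in sgScramble, 14.7 to 22.0 in sgKRT19) passed the filter only through the sgKRT19 tumors. Its call was lost without sgScramble replicate 2 or sgKRT19 replicate 5 or 6. For *Csf3r* the groups overlapped (170 to 309 and 261 to 536). The call of *Csf3r* was lost with scaling by total reads (limma adjusted p = 0.147) and without sgScramble replicate 1, 2 or 3 or sgKRT19 replicate 6 or 8. The marker *Ly6g* was too low to be tested (0.91 to 5.78), with overlapping groups. Of 5 endothelial markers 3 were higher (3069 to 4853 and 4908 to 5404), *Kdr* (0.73), *Tie1* (0.62) and *Pecam1* (0.48). The calls of *Tie1* and *Pecam1* were lost with scaling by total reads (limma adjusted p = 0.142 and 0.190). They were also lost without sgScramble replicate 2 or sgKRT19 replicate 5 or 8. *Cdh5* (0.42) and *Vwf* (−0.31) did not pass (limma adjusted p = 0.0930 and 0.245). No fibroblast marker of 6 passed the limma test (sums 37169 to 87742 and 45588 to 52235), and the 5 B and plasma cell markers, of which only *Cd79b* had enough reads to be tested, summed to 51.0 to 198 and 35.7 to 55.5. The part of each cell type in the levels of the 6 genes was not tested.

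The receptors were set against the T cell receptor complex within each tumor, on the log2(value + 1) scale. *Cxcr3* lay below the mean of *Cd3d*, *Cd3e* and *Cd3g* by values of −2.88, −2.29, −1.51 and −1.26 in the sgScramble tumors and −2.80, −2.39 and −2.44 in the sgKRT19 tumors, so the groups overlapped. *Cxcr6* lay at 0.34, 0.11, 0.19 and 0.65 relative to the same mean in sgScramble tumors and at 0.18, −0.04 and −0.08 in sgKRT19 tumors. The group difference was −0.56 for *Cxcr3* (two-sided exact permutation p = 0.286, adjusted 0.571) and −0.30 for *Cxcr6* (exact permutation p = 0.114, adjusted 0.457). *Cxcr6* exceeded *Cxcr3* by 2.31 ± 0.68 in sgScramble and 2.56 ± 0.37 in sgKRT19 tumors (difference 0.25, exact permutation p = 0.629, adjusted 0.629). *Cxcl9* exceeded *Cxcl10* by 0.66 ± 0.41 and 0.87 ± 0.15 (difference 0.21, exact permutation p = 0.514, adjusted 0.629). These 4 pairs were compared, p-values were adjusted over the 4, and with 4 against 3 tumors the smallest p the test allows is 0.0571. Since 0.0571 lies above 0.05, none of the 4 differences could pass that threshold. The test therefore cannot decide whether these pairs differed between the groups.

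The order of the 3 sgKRT19 tumors differed from gene to gene. Replicate 8 had the highest *Cxcl9* (8182) and *Cxcl10* (5007) of the 3 and also the highest *Ifng* (199). The same tumor had the lowest *Cxcr3*, *Cxcr6*, *Cd3d* (255), *Cd3e* (261), *Cd3g* (455) and *Cd8a* (967). It was also the lowest for *Cxcl16*, and replicate 6 was the highest for *Cxcl11*. With 3 tumors this order is a description. In sgScramble, replicate 3 was the lowest tumor for *Cxcl9* (1238, beside 1244 in replicate 2), *Cxcl10*, *Cxcl11* and *Cxcr6*. It was also the lowest for *Ifng* (22.8), *Cd3e* (36.5), *Cd3g* (61.2) and *Cd8a* (77.6). By contrast, *Cd3d* (44.5) was lowest in replicate 4, *Cxcr3* (13.9) in replicate 1 and *Cxcl16* (3675) in replicate 2.

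**Figure D2:**
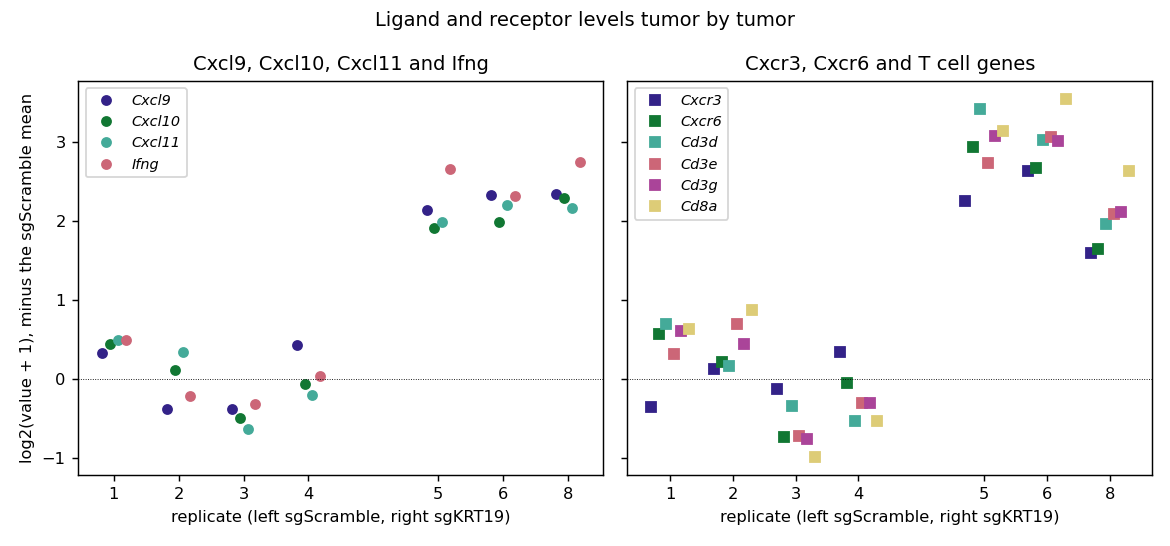
Level of each gene in each tumor as log2(value + 1) minus the mean of the 4 sgScramble tumors (y axis), with 1 column of points per tumor and 1 color per gene. Left, the CXCR3 ligand genes with *Ifng*. Right, the receptors with 4 T cell genes. In the right panel sgKRT19 replicate 8 is the lowest of the 3 sgKRT19 tumors for every gene, and in the left panel it is the highest for *Cxcl9*, *Cxcl10* and *Ifng* but not for *Cxcl11*.

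Levels of different genes can be compared only per length, so TPM, the transcript level per length scaled to the same total in each library, was computed from the reads and the summed exon length. In the sgScramble tumors *Cxcl16* came first at 56.0 ± 4.5 TPM (SD, n = 4), above *Cxcl9* at 23.7 ± 8.1 and *Cxcl10* at 19.6 ± 4.5. *Cxcl9* and *Cxcl10* overlapped there, with 16.9 to 34.2 against 13.2 to 23.7 TPM. *Cxcr6* (2.15 ± 0.68 TPM) and *Cxcl11* (1.15 ± 0.35 TPM) also overlapped, and *Cxcr3* was lowest at 0.457 ± 0.141 TPM, below *Cxcl11* in every tumor. In the sgKRT19 tumors *Cxcl9* (85.7 ± 18.0 TPM, n = 3) and *Cxcl10* (63.1 ± 15.4 TPM) had higher means than *Cxcl16* (53.1 ± 7.4 TPM). The ranges of *Cxcl10* (46.7 to 77.3 TPM) and *Cxcl16* (45.6 to 60.4 TPM) overlapped, and that of *Cxcl9* (65.0 to 97.8 TPM) lay above *Cxcl16*. On this scale *Cxcl9* was highest in sgKRT19 replicate 6 (97.8 TPM) and not in replicate 8 (94.4 TPM). *Cxcr6* was at 8.95 ± 3.19, *Cxcl11* at 3.78 ± 0.82 and *Cxcr3* at 1.68 ± 0.69 TPM, and these 3 ranges did not overlap.

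**Figure D3:**
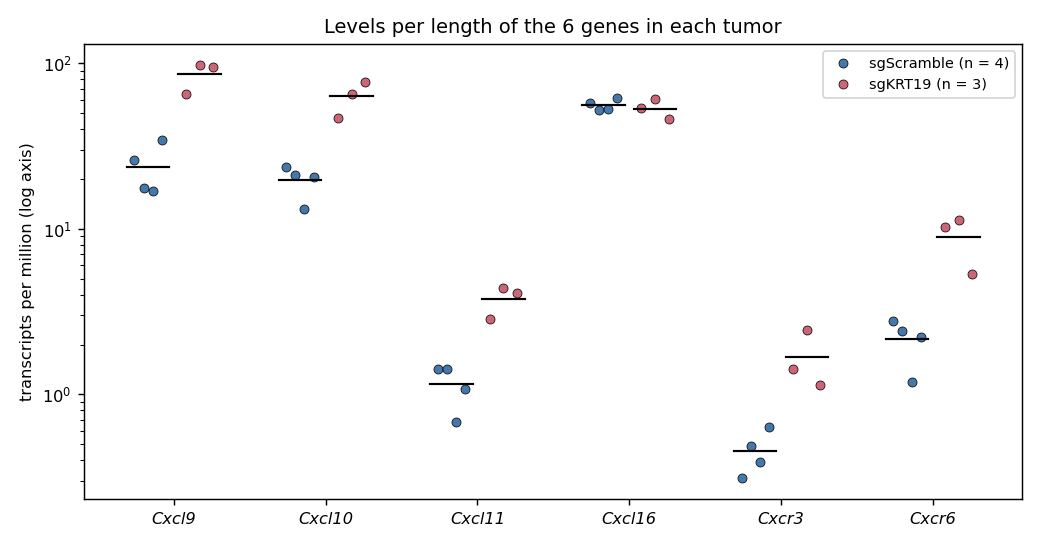
Level per length of the 6 genes in TPM (log axis). Points are tumors and lines are group means. *Cxcl16* leads in the sgScramble tumors (56.0 TPM) and *Cxcl9* in the sgKRT19 tumors (85.7 TPM), and *Cxcr3* is the lowest gene in both groups.

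The chromosome 5 cluster was then compared with the genes beside it. *Art3*, which encodes a member of the ADP-ribosyltransferase family, runs on the other strand from 92331827 to 92414628 and spans *Cxcl10* and *Cxcl11*. It was at 346, 307, 255 and 224 in sgScramble and at 1097, 1041 and 1338 in sgKRT19 tumors. Its log2 difference of 2.04 (SE 0.17, limma adjusted p = 4.88e-05) was close to that of *Cxcl10*, and its exons share 133 bases with *Cxcl10*, 5.91% of the exon bases of the latter, and none with *Cxcl11*. Reads in these shared bases cannot be assigned without strand. Of 3 upstream windows of *Art3*, the window at chr5:92387884-92388133 holds a match to GAAANNGAA on its minus strand (TTCCGTTTC), 62 to 54 bases before that start. *Naaa*, a lysosomal amidase gene on the side of *Cxcl9*, rose by 0.84 (SE 0.11, limma adjusted p = 5.35e-04). *Sdad1*, which lies between *Naaa* and *Cxcl9*, had a log2 difference of −0.15 (limma adjusted p = 0.361), and the nucleoporin gene *Nup54* on the far side of *Art3* of −0.22 (limma adjusted p = 0.149).

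**Figure D4:**
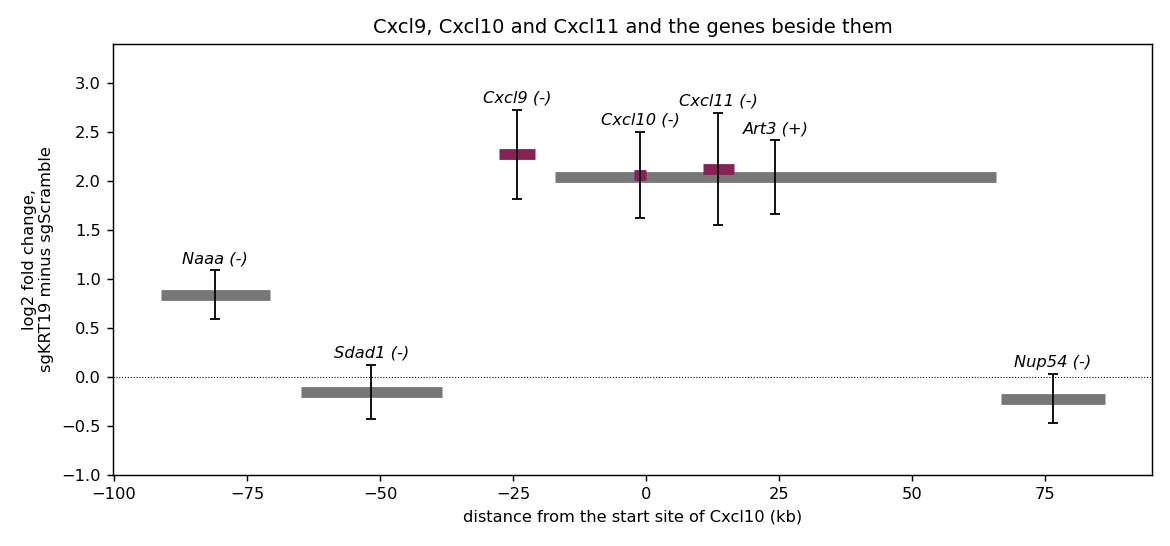
Log2 fold change (y axis, sgKRT19 minus sgScramble) of the CXCR3 ligand genes and the genes beside them, drawn to scale by distance from the start site of *Cxcl10* in kb (x axis). Horizontal bars span each gene (purple, ligands; gray, others; strand in parentheses) and vertical lines are 95% intervals from limma. The 3 ligand genes and *Art3* lie between 2.04 and 2.27, while *Sdad1* and *Nup54* lie at −0.15 and −0.22.

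Genes of the pathway upstream of the CXCR3 ligands were counted from a list of interferon gamma signaling, where 5 of 8 genes rose and none fell by limma, with a median log2 difference of 0.66. *Ifng*, the interferon itself, was at 40.9, 24.7, 22.8 and 29.7 in sgScramble and at 187, 147 and 199 in sgKRT19 tumors, and rose by 2.57 (SE 0.25, limma adjusted p = 9.67e-05). The feedback inhibitor *Socs1* rose by 1.57. The transcription factors *Irf1* and *Irf8* rose by 0.91 and 0.83, and the receptor chain *Ifngr1* by 0.49. The other receptor chain *Ifngr2* (0.19) and the kinases *Jak1* (−0.06) and *Jak2* (−0.02) did not pass, with limma adjusted p of 0.183, 0.666 and 0.876. Of 11 genes tested among the inputs from type I interferon and NF-kB, 4 rose and 1 fell, with a median of 0.21. Of all tested genes 17.9% rose and 16.0% fell. *Irf7*, an amplifier of the interferon response, rose by 1.68, *Tnf* by 1.19, *Irf9* by 0.44 and *Tnfrsf1a*, a receptor of tumor necrosis factor, by 0.37. *Nfkb1*, an NF-kB subunit, fell by 0.53 on the log2 scale. Single libraries decided 3 of these calls: *Nfkb1* lost its call without sgKRT19 replicate 5 (limma adjusted p = 0.0521), *Irf9* without sgScramble replicate 3 or 4 or sgKRT19 replicate 5 or 8 (up to 0.101) and *Tnfrsf1a* without sgScramble replicate 2 or 4 or sgKRT19 replicate 5 (up to 0.0740). *Ifnb1*, the gene of interferon beta, was not tested and had from 0 to 5.57.

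Proteins that trim, shed or hold the ligands made up a list of 6, of which 1 fell and none rose by limma. Over all tested genes 16.0% were called as lower, which is near 1 of 6, and 17.9% as higher. *Sdc1*, a heparan sulfate proteoglycan that can hold chemokines, fell by 0.52 on the log2 scale (limma adjusted p = 0.0378), and its call was lost without any single sgScramble tumor, without sgKRT19 replicate 6 and without replicate 8 (limma adjusted p up to 0.145, the last of these). *Dpp4*, the protease that shortens the CXCR3 ligands, had a log2 difference of 1.02 (limma adjusted p = 0.0599), and passed without sgScramble replicate 4 (1.32, limma adjusted p = 0.0159). *Mmp9*, a matrix protease gene, had a difference of 0.71 (limma adjusted p = 0.0651) and passed as higher without sgScramble replicate 1 (0.87, limma adjusted p = 0.0320) or 3 (0.83, limma adjusted p = 0.0445), so that in these 3 fits 1 gene of the list rose and none fell. *Adam10* and *Adam17*, which shed CXCL16, had differences of 0.15 and −0.21 (limma adjusted p = 0.411 and 0.102).

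Downstream of the receptors, 3 of 10 signaling and migration genes rose, with a median log2 difference of 0.22. Of all tested genes 17.9% were called as higher and 34.0% in either direction. The 3 were *Rac2*, a GTPase of blood cells (1.35), the leukocyte kinase subunit *Pik3cd* (0.72) and *Dock2*, which activates Rac proteins in lymphocytes (0.72). *Dock2* lost its call without sgScramble replicate 2 or 3 or sgKRT19 replicate 5 or 6 (limma adjusted p up to 0.109). The G protein and arrestin genes *Gnai2*, *Gnai3*, *Gnb1*, *Arrb1* and *Arrb2*, which most cells express, lay between −0.16 and 0.23 and did not pass. With scaling by total reads *Gnai3* (−0.34, limma adjusted p = 0.0204) and *Arrb2* (−0.37, limma adjusted p = 0.0469) were called as lower. Of 10 regulators of type 1 T cells and of residency, 7 rose, with a median of 0.87. *Tbx21*, which encodes T-bet, a factor known to drive *Cxcr3*, rose by 1.81 (SE 0.33, limma adjusted p = 0.00289). *Il2rb* rose by 1.77, *Itgae*, the integrin chain of CD103, by 1.55, the residency factor *Zfp683* by 1.55, *Eomes* by 0.88 and *Stat4* by 0.85. The groups overlapped for *Zfp683* (8.36 to 27.7 in sgScramble, 26.6 to 65.0 in sgKRT19), which passed the filter only through the sgKRT19 tumors. *Zfp683* was not called with the filter at 50, and lost its call without sgKRT19 replicate 6 (limma adjusted p = 0.0899) or 8 (0.0650). *Prdm1* and *Bhlhe40* had differences of 0.04 and −0.32 (limma adjusted p = 0.886 and 0.190).

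Of the other CXC ligand genes, 3 of 10 tested rose and 1 fell, beside 17.9% and 16.0% of all tested genes. Their median log2 difference was 0.36 against 2.09 for the 4 ligand genes followed here. *Cxcl17*, a mucosal chemokine gene, rose by 2.02 and was the nearest in size, at 659 to 1692 in sgScramble and 3796 to 5179 in sgKRT19 tumors. *Cxcl3* and *Cxcl5*, whose products attract neutrophils through CXCR2, rose by 1.25 and 0.88, and *Cxcl15* fell by 2.20 on the log2 scale, from 99.8 to 140 down to 14.7 to 43.9. *Cxcl12*, the ligand of CXCR4 that the study examined in a complex with KRT19, had a difference of 0.46 (limma adjusted p = 0.165). Among the other CXC and atypical receptors 2 of 6 tested rose, *Cxcr2* by 1.32 and *Cxcr4* by 0.90, and the scavenger *Ackr3* fell by 0.76 on the log2 scale. Of 14 table rows tested for CC, C and CX3C chemokines and receptors of T cells, 9 rose and none fell, with a median of 1.27. *Ccl4*, *Ccl5* and *Ccl3*, which encode inflammatory CC chemokines, rose by 2.52, 2.19 and 2.18, *Ccl21a* by 2.15, *Xcl1* by 1.93 and *Ccl19* by 1.64. *Ccl19* and *Ccl21a* each had a second row in the table that was too low to be tested, and reads may be split between the rows. The tested row of *Ccl21a* had 3 to 11 reads in the sgScramble tumors, near the floor, and passed the filter only through the sgKRT19 tumors. Neither gene was called with the filter at 50. Without sgKRT19 replicate 8 the calls of *Cxcl3* and *Ccl19* were lost (limma adjusted p = 0.0620 and 0.0511). *Ccr7*, the gene of the receptor of CCL19 and CCL21, had a difference of 0.21 (limma adjusted p = 0.478).

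**Figure D5:**
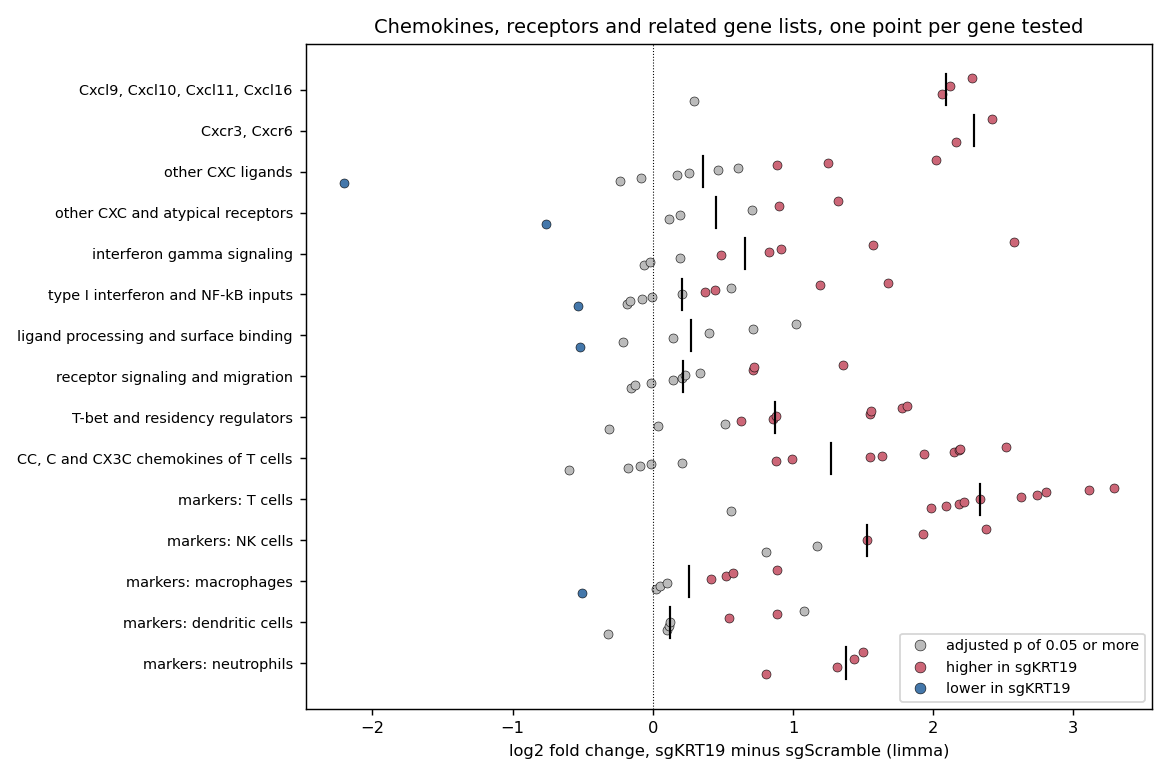
Log2 fold change (x axis, sgKRT19 minus sgScramble, limma) of every tested gene of the chemokines and receptors followed here, of related lists and of immune cell markers (rows). Each point is a gene, colored where its adjusted p was under 0.05, and vertical lines are list medians. The medians of the 4 ligands (2.09) and 2 receptors (2.29) lie near that of the T cell markers (2.33), and those of the other CXC ligands (0.36) and receptors (0.45) lie nearer to 0.

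The genes with the most similar profile over the 7 tumors were found by the root mean square distance of centered log2 values among tested genes with a mean of at least 100. *Cxcl10* and *Cxcl11* were each other's nearest gene, at 0.15 log2 units, followed for *Cxcl10* by *Sh2d2a*, a T cell adapter gene (0.17), and *Art3* (0.18), and for *Cxcl11* by *Sh2d2a* (0.16) and the immunoproteasome gene *Psmb9* (0.17). *Cxcl9* was nearest to *Dnase1l3* (0.18), *Ly6c2* (0.19) and the interferon-inducible *Ifi213* (0.23). *Cxcr6* was nearest to *Pdcd1*, which encodes PD-1 (0.14), to *Ms4a4b* (0.20) and to *Cd3g* (0.22). *Cxcr3* was nearest to the T cell kinase gene *Zap70* (0.24), then *Bsn* (0.27) and *Synpo2* (0.30). *Cxcl16* was nearest to *9430038I01Rik* (0.04), *Pla2g7* (0.05) and *Cenpk* (0.06), which likewise differed little between the groups. The distances describe 7 tumors in 2 groups, and any gene with a similar group difference comes close.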

How the data were processed

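RNA of 7 tumors had been extracted with a Qiagen kit and made into libraries by the study with a kit that keeps strand, and sequenced as single reads. The authors deposited 1 table of 38026 genes in which each library has a column. The deposited values are a signal, namely the reads of a gene divided by the size factor of its library. Dividing each column by its smallest step gave whole numbers (100% of values within a tolerance of 0.05), so reads were recovered, 40781199 to 44972100 per library. The build is mm10 per the submitters' processing notes, and the aligner, the counter and its use of strand are not given in the sources used here. Gene positions and exon lengths came from GENCODE M21 (GRCm38), in which 97.7% of identifiers have the same version, and sequences from RefSeq GRCm38.p6.

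Groups came from the labels, and each library was 1 replicate. The 21322 genes that reached 10 in 3 or more libraries entered limma 3.58.1 (lmFit, eBayes with a trend) on log2(value + 1) with the group as the only term, with Benjamini-Hochberg adjustment over all of them and a threshold of 0.05. A fold change on this scale understates that of low genes. The step was tested on simulated data. Within-tumor differences were tested by exact permutation over the 35 splits (scipy 1.17.1). Alternatives were edgeR 4.0.16 and DESeq2 1.42.0 on the recovered reads, other scalings, pseudocounts (0.5, 10) and filters, a test against a fold of 1.5, and leaving out each library. Intervals and the floor of 3 reads cover no error of PCR, since the reads carry no molecular identifiers.

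The 6 genes and the gene lists were chosen with earlier results of these data known, and the lists were written from general knowledge. Besides the 6 genes, the text names up to 6 genes of a list with the largest changes among those called, or ones it has to single out, genes overlapping or next to the 6, and the 3 nearest profiles of each. Lists are described by counts and medians, without a set test. Every such count stands beside 17.9% of all tested genes called as higher and 16.0% called as lower. Some items are not reported here and were left out of the lists. Figures were drawn from the same values.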

Additional observations from a re-analysis of the deposited data

Results flagged for a closer look

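In the group of 4 sgScramble tumors, 88 results were searched for a tumor whose gap to the nearest of the others exceeded Dixon's 95% critical value, and 5 were found (5.68%), where chance gives about 1 in 20. None was a level of the 6 chemokine and receptor genes or of the 4 within-tumor differences. *Cxcl3* (213 against 74.1 to 95.9) and *Ccl3* (92.0 against 53.9 to 60.3) were high in sgScramble replicate 1. *Itgax*, a dendritic cell marker, was high in replicate 4 (1207 against 845 to 874). The sum of neutrophil markers was 339 in replicate 2 against 465 to 491, and that of skeletal muscle markers was 1432 in replicate 3 against 27.7 to 40.8.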

How the results depend on the processing

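No paired analysis was possible because the groups share no replicate number. The number of the 6 genes called was 5 in the main analysis and under every alternative but the fit without sgKRT19 replicate 8, where *Cxcl16* made it 6. Over the fits that left out a library the log2 difference of *Cxcl16* ranged from 0.17 to 0.45. Over all 16 alternatives the difference ranged from 2.06 to 2.42 for *Cxcl9*, 1.85 to 2.21 for *Cxcl10*, 1.91 to 2.29 for *Cxcl11*, 1.75 to 2.45 for *Cxcr3* and 2.16 to 2.80 for *Cxcr6*, with limma, edgeR or DESeq2 adjusted p of at most 0.00605. No within-tumor difference changed sign, and levels per length moved by less than the SD between tumors when the longest transcript replaced the summed exons.

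Of 133 genes of the 18 other lists, 72 were called (67 higher, 5 lower). The number was 33 in the test for a fold above 1.5, by the construction of that test, and 62 to 74 elsewhere. There the counts fell to 2 of 4 for other CXC ligands, 0 of 3 for other CXC receptors, 2 of 5 for interferon gamma signaling, 1 of 5 for type I interferon and NF-kB, 0 of 1 for ligand processing, 1 of 3 for receptor signaling, 3 of 7 for T-bet and residency, 4 of 9 for other chemokines, 0 of 5 for macrophages, 2 of 4 for neutrophils and 0 for dendritic, endothelial and epithelial genes. The type I interferon and NF-kB count was 2 without sgKRT19 replicate 5 and 3 without sgScramble replicate 4. The macrophage count was 2 without sgKRT19 replicate 5 or with scaling by total reads, and 3 without sgScramble replicate 2. Leaving out single libraries took the counts as low as 0 for dendritic cells, 1 for endothelium, 2 for neutrophils and 0 for ligand processing, whose 1 call was a higher gene in place of the lower one without sgScramble replicate 1, 3 or 4. Scaling by total reads gave 2 for ligand processing, both lower, and 1 for endothelium, while both dendritic calls were lost and *Fscn1* was called as lower (−0.53), and 1 fibroblast gene was called with DESeq2 and without sgScramble replicate 1.

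Of the 72 called genes, 18 lost their call in at least 1 fit without a library. They were *Cxcl3*, *Ccl19*, *Nfkb1*, *Zfp683*, *Irf9*, *Tnfrsf1a*, *Dock2*, *Sdc1*, *Mrc1*, *C1qa*, *C1qc*, *Clec9a*, *Itgax*, *Csf3r*, *Retnlg*, *Pecam1*, *Tie1* and *Runx3*. With scaling by total reads *Ifngr1*, *Irf9*, *Tnfrsf1a*, *Dock2* and *Stat4* were not called. On that scale *Zmynd15* (−0.48), *Nup54* (−0.44), *Adam17* (−0.43), *Bhlhe40* (−0.53), *Gnai3* (−0.34) and *Arrb2* (−0.37) were called as lower. Log2 differences near 0 that changed sign, none of them called, were with scaling by total reads those of *Adgre1* (−0.197), *Csf1r* (−0.165), *Cd68* (−0.113), *Adam10* (−0.0695), *Ifngr2* (−0.0256), *Prdm1* (−0.175), *Epcam* (−0.152) and *Ccr7* (−0.00403), and with edgeR and DESeq2 those of *Adgre1* (−0.00374 and −0.000104) and *Epcam* (−0.0173 and −0.00980). Over the fits without a library *Adgre1* ranged from −0.0696 to 0.157, *Csf1r* from −0.0472 to 0.192, *Jak2* from −0.0609 to 0.0339, *Prdm1* from −0.0971 to 0.122 and *Epcam* from −0.276 to 0.698. Only for the test against a fold of 1.5 is the cause of a lost call known from its construction, and otherwise the cause was not tested. Of the 6 genes *Cxcr3* had the fewest reads, 15 to 25 in sgScramble tumors, and its SE was 0.30. *Ccl21a*, with 3 to 11 reads there, had an SE of 0.46.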
